A study of Homo sapiens with 9 samples.

Results

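Multicellular tumor spheroids (MTSs) of PC-3 prostate cancer cells that overexpressed NF-YAs, the short splice isoform of the transcription factor subunit NF-YA, were compared with MTSs of PC-3 cells carrying the empty vector. All 27111 genes and 58352 transcripts in the deposited tables were taken, in 3 NF-YAs libraries (A, B and C) and 3 Empty libraries (A, B and C), which are 6 of the 9 libraries of the series. The other 3 libraries came from cells overexpressing NF-YAl, the long isoform, and entered here to estimate the spread of each gene and for one direct comparison. PC-3 is an established line derived from a bone metastasis of a prostate adenocarcinoma. Each line was made by lentiviral infection with a pSIN vector, either empty or carrying an NF-YA coding sequence of murine origin, and the Empty cells went through the same infection and puromycin selection as the NF-YAs cells. The cells were then grown as MTSs in Matrigel-containing medium, and several MTSs were pooled for each library. The 3 libraries of a line came from separate experiments on the same stable cells, so the spread between them does not include a second transduction. Whether a line was started from 1 clone is not given in the sources used here.

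NF-Y is a trimeric transcription factor. Its subunits NF-YB and NF-YC pair through histone-fold domains, and NF-YA adds recognition of the CCAAT box, a short motif common in the promoters of cell cycle, lipid and endoplasmic reticulum stress genes. Alternative splicing of the NFYA transcript includes or skips exon 3, which codes for part of the glutamine-rich activation domain, and this gives NF-YAl or NF-YAs.

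Total RNA was sequenced after ribosomal depletion, and reads were given to genes and transcripts in the form of expected counts, the estimate that RSEM makes when a read fits more than 1 transcript. The Empty libraries held 25033571 to 27163976 expected counts and the NF-YAs libraries 18076979 to 21533481, so the 2 groups did not overlap in depth. Levels are given below as CPM, read counts relative to the scaled library size, which compares 1 gene between libraries and not 1 gene with another, or as TPM, which also corrects for transcript length. Ribosomal RNA took 3.37% to 7.71% of the counts in the Empty libraries and 4.15% to 4.89% in the NF-YAs libraries. The first principal component of the 6 libraries held 75.9% of the variance and separated the lines. Of 6 epithelial markers fixed for PC-3, all 6 were measured, and their summed level was 1226 to 1358 CPM in the Empty libraries and 735 to 840.0 CPM in the NF-YAs libraries. Only 2 of 6 leukocyte markers and 2 of 6 fibroblast markers passed the filter on low counts, and those that did not included PTPRC, CD3E, SPI1, DCN, LUM, THY1 and FAP. The summed level was 19.1 to 36.6 CPM in the Empty and 21 to 21.6 CPM in the NF-YAs libraries for the leukocyte markers. For the fibroblast markers it was 25.7 to 71.3 and 98.9 to 149.0 CPM, nearly all of it COL3A1. Of 6 endothelial markers 4 were measured, summing to 15.3 to 16.9 CPM in the Empty and 15.5 to 17.5 CPM in the NF-YAs libraries, while CDH5 and CLDN5 were filtered. Fewer cells of a type and less RNA per cell cannot be told apart in bulk libraries.

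NFYA itself, the gene on chromosome 6 (GRCh37, 41040713 to 41070142) that the vectors were meant to raise, was measured first. It had 89.2, 96.7 and 89.4 CPM in the Empty libraries and 264, 263 and 254 CPM in the NF-YAs libraries. The lines did not overlap, and the difference was 1.51 on the log2 scale (log2FC 1.51, SE 0.111, adjusted p = 2.21e-06, edgeR). Here and below, log2FC is the log2 fold change of NF-YAs over Empty, SE its standard error and the adjusted p the Benjamini-Hochberg value over all 17108 genes tested with edgeR's quasi-likelihood test. The introduced sequence is murine and the reads were aligned to the human genome, so the level of NFYA and of its transcripts counts only those murine reads that were similar enough to align. The values are thus no full measure of the overexpression, and the part of murine reads in them was not tested. The partner subunits did not pass the test. NFYB had 17.3 CPM in Empty and 20.03 CPM in NF-YAs MTSs (log2FC 0.21, adjusted p = 0.368, edgeR) and NFYC 24.5 CPM in Empty and 27.7 CPM in NF-YAs MTSs (log2FC 0.17, adjusted p = 0.266, edgeR). DR1 and DRAP1, histone-fold relatives that form a transcriptional repressor, had log2FC values of -0.20 and -0.37 and were not called either.

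The isoforms differ by exon 3, which is shown because it is the only sequence that separates NF-YAs from NF-YAl in the 2 human gene models counted here. It lies on the plus strand of chr6:41048550-41048636 (GRCh37), is coding, and spans 87 bases or 29 codons with 63.2% GC.
NFYA exon 3: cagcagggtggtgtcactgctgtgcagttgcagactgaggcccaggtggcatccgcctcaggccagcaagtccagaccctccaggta
The transcript that skips exon 3 (NM_021705.3, 6132 nucleotides) had 14.01, 6.23 and 6.77 TPM in the Empty libraries and 46.8, 49.4 and 38.4 TPM in the NF-YAs libraries. The transcript with exon 3 (NM_002505.4, 6219 nucleotides) had 5.91, 10.2 and 8.19 TPM in the Empty libraries and 13.98, 4.89 and 10.9 TPM in the NF-YAs libraries. The first transcript was higher in every NF-YAs library than in any Empty library, whereas the second overlapped between the lines. Across all transcripts tested, the change of the exon 3-skipping transcript was called (log2FC 2.21, SE 0.323, adjusted p = 0.0056, edgeR) and that of the transcript with exon 3 was not (log2FC 0.07, adjusted p = 0.967, edgeR). Leaving out any 1 of the 6 libraries kept the log2FC of the skipping transcript between 2.05 and 2.49 but took its adjusted p to between 0.0107 and 0.0326 (edgeR), above the threshold of 0.01. In percent of NFYA abundance, the skipping transcript took 70.3%, 37.9% and 45.3% in the Empty libraries and 77.0%, 91.0% and 77.9% in the NF-YAs libraries. These shares did not overlap either, and the change in share did not pass the test of transcript usage, which compares each transcript with the rest of its gene.

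**Figure D1:**
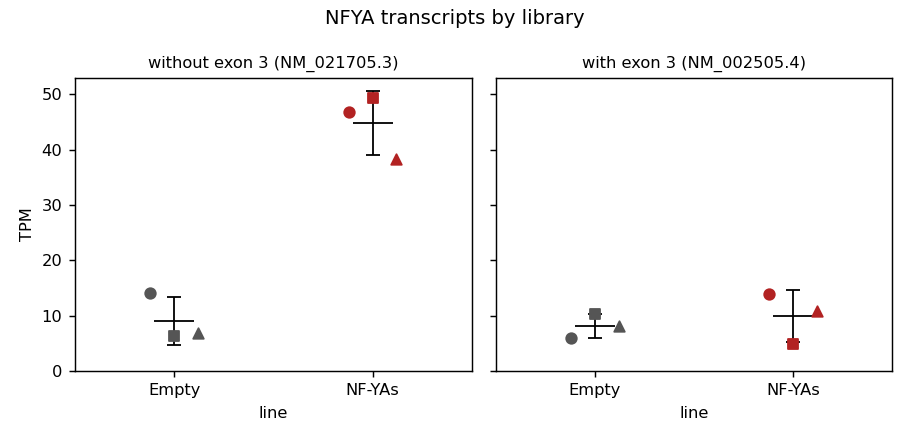
TPM of the NFYA transcripts without exon 3 (left) and with exon 3 (right) in the Empty and NF-YAs lines, with one point a library (circle A, square B, triangle C) and bars for the mean and SD of 3 libraries. The transcript without exon 3 averaged 9.003 TPM in Empty and 44.9 TPM in NF-YAs, and the transcript with exon 3 averaged 8.11 and 9.92 TPM.

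A gene counted as differentially expressed (DEG) if its adjusted p was below 0.01 and its log2FC lay outside -1 to 1. Of 17108 genes tested, 931 (5.44%) had higher and 667 (3.9%) had lower expression in NF-YAs MTSs by this rule, together 9.34%. These percentages are the background against which every count of a gene group below is to be read. In all 931 up-regulated genes the 3 NF-YAs libraries lay above the 3 Empty libraries, and in all 667 down-regulated genes they lay below. Over all tested genes such a complete separation was found in 29.2% upward and 27.1% downward. Without the limit on the fold, 2063 genes (12.1%) were higher and 1802 (10.5%) lower at the same adjusted p, and the median log2FC of all tested genes was -0.0026 on the log2 scale. Large changes were more often upward, with 434 up-regulated genes above a log2FC of 2 and 161 down-regulated genes below -2. Among the up-regulated genes, 109 had no more than 3 counts in any Empty library, and among the down-regulated genes 29 had no more than 3 counts in any NF-YAs library. For these genes, folds are given below as lower bounds computed with 3 counts per library.

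**Figure D2:**
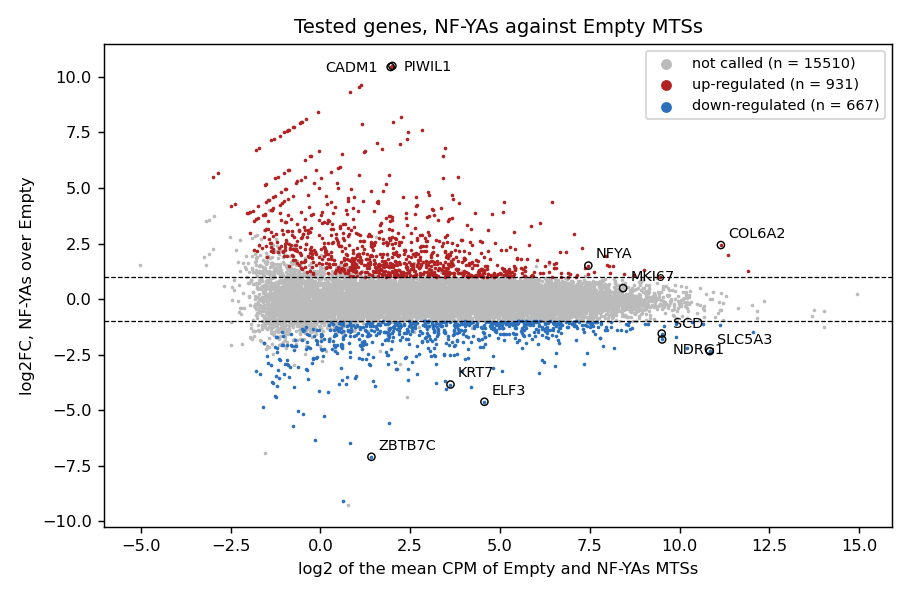
The log2FC of each of 17108 tested genes (vertical axis) against the log2 of its mean CPM over both lines (horizontal axis), with 931 up-regulated genes in red, 667 down-regulated genes in blue, genes not called in grey and dashed lines at the fold limits of 1 and -1. The rows of points at the upper left are genes with few or no counts in the Empty libraries, and COL6A2 and SLC5A3 are called genes at high level.

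The 10 up-regulated genes with the largest log2FC, among those reaching a mean of 5 CPM in the higher line, went from almost no counts to a clear level. PIWIL1, which encodes a piRNA-binding protein of the germ line, had 0 counts in all 3 Empty libraries and 10.2, 4.28 and 9.58 CPM in the NF-YAs libraries, at least 66.4-fold higher. CADM1, an immunoglobulin family adhesion molecule, had 8.08, 5.03 and 10.2 CPM in the NF-YAs libraries and was at least 64.1-fold higher. CADM1, too, had 0 counts in each Empty library. No more than 3 counts were found in any Empty library for PTGFRN (at least 77.6-fold), a membrane partner of tetraspanins, and for PDZRN3 (at least 66.3-fold), a ubiquitin ligase. DCHS2, a large cadherin, rose at least 117-fold, RUNX3, a Runt family transcription factor, at least 89.2-fold, and GPR85, an orphan receptor, at least 88.1-fold. The metalloprotease gene ADAM33 rose at least 49.1-fold. SPATA31C2 rose at least 76.7-fold, but it belongs to a family of near-identical copies among which reads may be split, so its level is uncertain. LRRC15, a leucine-rich repeat membrane protein, was measured in both lines, with 0.294, 0.159 and 0.118 CPM in the Empty libraries and 12.6, 28.4 and 24.4 CPM in the NF-YAs libraries (log2FC 6.81, SE 0.469, adjusted p = 1.46e-06, edgeR).

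The 10 down-regulated genes with the largest change were mainly expressed at moderate level in Empty MTSs. ELF3, an epithelium-specific ETS transcription factor, had 50.4, 31.9 and 54.4 CPM in the Empty libraries and 2.10, 1.34 and 2.07 CPM in the NF-YAs libraries (log2FC -4.63, SE 0.342, adjusted p = 2.26e-06, edgeR). KRT7, a simple epithelial keratin, had 26.5, 22.9 and 19.7 CPM in the Empty libraries and 2.05, 0.896 and 1.84 CPM in the NF-YAs libraries (log2FC -3.85, SE 0.293, adjusted p = 2.65e-06, edgeR). Every NF-YAs library was far under every Empty library for both. The hair keratin gene KRT38 fell from 34.4 ± 9.29 to 2.16 ± 0.874 CPM (mean ± SD, n = 3 libraries each), the connexin gene GJA5 fell from 5.37 ± 0.538 to 0.352 ± 0.0773 CPM, and C1orf116 fell from 20.7 ± 0.500 to 1.58 ± 0.866 CPM. ZBTB7C, a zinc finger transcription factor, had 4.61, 6.64 and 4.72 CPM in the Empty libraries and no more than 3 counts in any NF-YAs library, at least 35.6-fold lower. TFF2, a trefoil peptide of mucosal epithelia, fell from 7.33 ± 2.53 to 0.148 ± 0.0465 CPM, and the long non-coding RNA LINC01133 fell from 5.08 ± 0.545 to 0.386 ± 0.228 CPM.

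TIMP3, an inhibitor of matrix metalloproteinases, had 25.4, 22.2 and 16.7 CPM in the Empty libraries and 1.40, 0.647 and 1.75 CPM in the NF-YAs libraries (log2FC -4.07, SE 0.283, adjusted p = 1.56e-06, edgeR). It lies inside SYN3, a synapsin gene transcribed from the other strand, and SYN3 had 17.8, 19.1 and 14.96 CPM in the Empty libraries and 1.56, 1.09 and 1.11 CPM in the NF-YAs libraries (log2FC -3.79, SE 0.281, adjusted p = 2.28e-06, edgeR). As the strand setting of the counting is not given in the sources used here, reads of TIMP3 and SYN3 cannot be told apart with certainty.

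**Figure D3:**
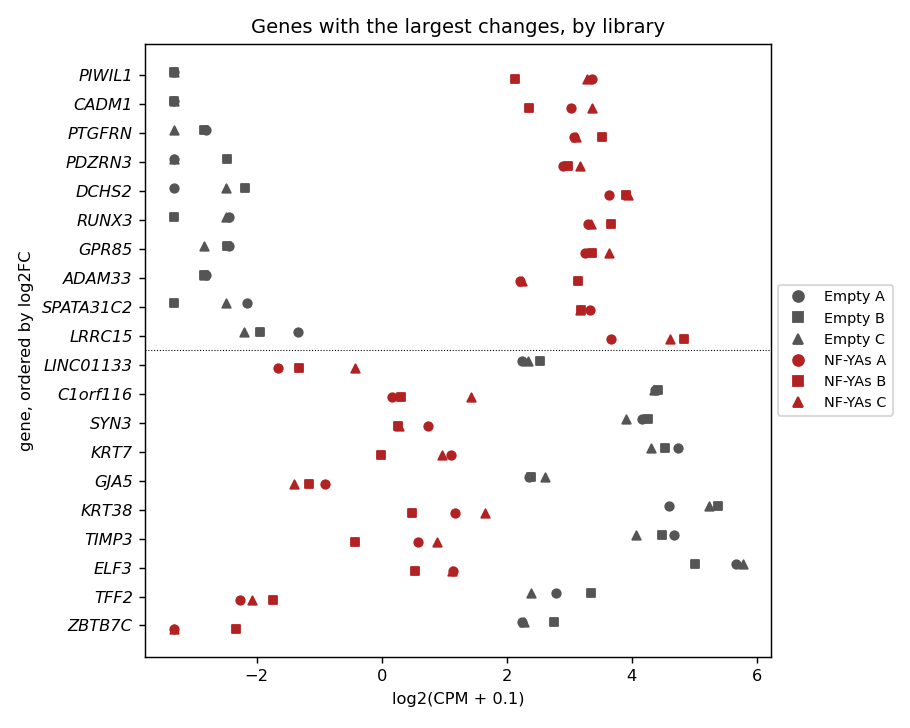
The log2(CPM + 0.1) of the 10 up- and 10 down-regulated genes with the largest log2FC, one row a gene ordered by log2FC, with grey points for Empty and red points for NF-YAs libraries (circle A, square B, triangle C). The lines are apart in every row, the points near -3.3 are libraries with 0 counts, and the dotted line separates up- from down-regulated genes.

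The CCAAT box was searched in promoters because NF-Y is known to bind it. RefSeq promoters (GRCh38.p14, 250 bases before to 50 bases after the start) were matched to 9560 of the tested genes. The letters CCAAT, or ATTGG where the motif is on the other strand, were present in 37.14% of these promoters, in 32.29% of the 477 up-regulated and 31.47% of the 375 down-regulated genes that had one, and in 37.66% of the 8708 genes not called. The longer motif, CCAAT followed by CA, CG, GA or GG, which lies wholly on top of a CCAAT match, was found on either strand in 22.7% of the promoters, in 16.56% of the up-regulated and in 19.2% of the down-regulated genes. Over the 22114 promoters that were searched, the shares were 36.17% and 17.59%. Genes with several listed promoters were left out of the search, so they enter none of the CCAAT shares given here. The share varied between the gene groups described below. CCAAT stood in 85% of the 20 matched promoters of G2/M and mitotic genes, 85.71% of 14 cholesterol genes and 83.33% of 18 ER stress genes, and in 18.18% of 11 collagen genes outside the fibrillar and basement membrane groups. These shares are descriptions without a test, and a match is not evidence of binding.

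Promoters of 4 DEGs with large changes are shown, 3 with the motif and 1 without, from RefSeq on GRCh38.p14, each 300 bases on the strand of the gene, with CCAAT or its reverse complement ATTGG in capitals. The promoter of PIWIL1 lies at chr12:130337637-130337936 (plus strand), with the motif 33 bases before the start. ELF3 lies at chr1:202010337-202010636 (plus strand), with the motif 73 bases before the start, and TIMP3 at chr22:32801455-32801754 (plus strand), with ATTGG 88 bases before the start. COL6A2 lies at chr21:46097862-46098161 (plus strand) and has neither form in this window, although its log2FC was 2.43.
PIWIL1: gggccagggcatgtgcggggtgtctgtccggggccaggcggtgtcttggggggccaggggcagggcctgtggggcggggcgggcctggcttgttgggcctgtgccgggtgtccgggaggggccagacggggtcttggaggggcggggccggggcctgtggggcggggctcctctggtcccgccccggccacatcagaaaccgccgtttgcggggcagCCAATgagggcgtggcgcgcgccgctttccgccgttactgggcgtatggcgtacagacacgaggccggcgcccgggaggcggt
ELF3: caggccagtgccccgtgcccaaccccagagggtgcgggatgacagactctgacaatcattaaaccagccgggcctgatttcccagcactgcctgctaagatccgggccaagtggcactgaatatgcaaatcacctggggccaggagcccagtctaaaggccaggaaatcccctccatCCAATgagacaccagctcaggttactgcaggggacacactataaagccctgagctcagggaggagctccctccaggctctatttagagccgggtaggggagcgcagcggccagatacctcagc
TIMP3: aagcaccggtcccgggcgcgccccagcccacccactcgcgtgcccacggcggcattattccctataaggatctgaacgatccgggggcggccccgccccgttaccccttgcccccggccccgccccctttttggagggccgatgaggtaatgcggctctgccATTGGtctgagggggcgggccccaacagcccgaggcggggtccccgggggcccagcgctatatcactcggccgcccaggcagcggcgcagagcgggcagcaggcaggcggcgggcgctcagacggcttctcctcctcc
COL6A2: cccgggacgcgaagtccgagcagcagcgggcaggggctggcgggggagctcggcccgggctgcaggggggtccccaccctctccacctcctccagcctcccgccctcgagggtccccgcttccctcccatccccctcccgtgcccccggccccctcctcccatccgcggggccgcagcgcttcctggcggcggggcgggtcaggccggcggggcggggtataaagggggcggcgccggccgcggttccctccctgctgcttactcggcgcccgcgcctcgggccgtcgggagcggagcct

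Gene groups were then described one by one, with the number of tested members, the number up- and down-regulated and the median log2FC, to be read against 5.44% up, 3.9% down and a median of -0.0026 over all genes. Where a count above 0 moved by over 1.5 times when 1 of the 6 libraries was left out, its range over the 6 leave-out fits or its values in them are given. Several gene groups share members.

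Of the pathway groups, collagens held the highest shares of up-regulated genes. Of 16 collagens outside the fibrillar and basement membrane groups, 11 were called (68.8%), all of them up-regulated, with a median log2FC of 1.25 over the 16. COL6A2 had 639, 816 and 679 CPM in the Empty libraries and 3599.6, 3807 and 4100.2 CPM in the NF-YAs libraries (log2FC 2.43, SE 0.147, adjusted p = 5.34e-07, edgeR). COL6A1, which forms the same microfibrils, had 959, 1154 and 1016 CPM in the Empty libraries and 4114, 4126 and 4299.6 CPM in the NF-YAs libraries (log2FC 2.002, SE 0.149, adjusted p = 2.28e-06, edgeR). Both genes lie next to each other on chromosome 21 and were several-fold higher in each NF-YAs library. COL6A3, the third chain of that fibre, was not called, with 340.2 CPM in Empty and 588 CPM in NF-YAs MTSs (log2FC 0.79, adjusted p = 0.000588, edgeR), because it stayed under the limit on the fold. COL9A2, a cartilage collagen chain, rose from 0.609 ± 0.266 to 28 ± 1.29 CPM (log2FC 5.52), and COL21A1 rose from 0.821 ± 0.344 to 7.19 ± 1.96 CPM (log2FC 3.12). COL13A1, a transmembrane collagen, had 181 CPM in Empty and 197 CPM in NF-YAs MTSs and was not called.

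Of 10 fibrillar collagens tested, 5 were called, each up-regulated, with a median of 1.52 over the 10. COL27A1 had 30.2, 28.5 and 25.2 CPM in the Empty libraries and 79.3, 74.6 and 75.9 CPM in the NF-YAs libraries, and COL1A1, the main chain of type I collagen, had 40.3, 39.4 and 39.4 CPM in the Empty libraries and 118, 141 and 119 CPM in the NF-YAs libraries. Each was higher in all NF-YAs libraries, with log2FC values of 1.45 and 1.67 (adjusted p = 7.8e-05 and 3e-05, edgeR). The 100 genes around COL1A1 on chromosome 17 had a median log2FC of 0.54, and those around COL27A1 -0.07. COL3A1 varied more, with 27.8, 70.8 and 25.5 CPM in the Empty libraries and 98.5, 148 and 126 CPM in the NF-YAs libraries, and was not called (adjusted p = 0.0127, edgeR). COL5A1 (log2FC -0.20) and COL5A2 (log2FC 0.12) were not called.

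Among 22 basement membrane collagens and laminins, 5 were up-regulated and 1 was down-regulated (2 without Empty A or NF-YAs C), with a median of 0.42. COL4A1 and COL4A2, which share 1 promoter region and form the main type IV collagen network, had log2FC values of 2.12 and 1.94. COL4A1 had 34.2, 39.6 and 41.5 CPM in the Empty libraries and 156, 187 and 157 CPM in the NF-YAs libraries (adjusted p = 4.55e-07, edgeR). COL4A2 had 97.97, 103 and 104 CPM in the Empty libraries and 369.8, 440.4 and 364 CPM in the NF-YAs libraries (adjusted p = 1.45e-06, edgeR). LAMA4, a laminin chain of vessel basement membranes, rose from 6.87 ± 0.766 to 25.01 ± 3.62 CPM. COL4A5 had a log2FC of 1.13, while its 100 neighbouring genes had a median of 0.32, and with that median subtracted it was no longer past the fold limit. The exception downward was HSPG2, which encodes perlecan and fell from 3114 ± 377 to 1398 ± 61.96 CPM (log2FC -1.16, SE 0.175, adjusted p = 0.00032, edgeR). LAMA5 (log2FC 0.18) and AGRN (log2FC -0.03) were not called.

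Glycoproteins of the matrix moved in both directions. Of 34 tested matricellular and matrix glycoprotein genes, 8 were up-regulated (5 to 9 in the leave-out fits, 5 without Empty A) and 4 were down-regulated (2 to 3, lower than 3 without each Empty library or NF-YAs B), with a median of 0.13. THBS1, an adhesive glycoprotein that also activates TGF-beta, had 53.3, 56.2 and 49.7 CPM in the Empty libraries and 265, 250.1 and 263 CPM in the NF-YAs libraries (log2FC 2.29, SE 0.188, adjusted p = 4.47e-06, edgeR). THBS2 rose from 0.283 ± 0.0499 to 5.84 ± 3.48 CPM and TNC, tenascin-C of remodelled stroma, rose from 149 ± 22.05 to 416 ± 49.7 CPM. TNXB, tenascin-X, fell from 353 ± 16.6 to 134 ± 7.55 CPM (log2FC -1.40, SE 0.117, adjusted p = 5.16e-06, edgeR). FN1, fibronectin, and FBN2, a fibrillin, had log2FC values of -0.65 and -0.63, below the fold limit at adjusted p = 0.00881 and 0.00369 (edgeR). Of 15 lysyl oxidases and collagen-modifying enzymes only LOXL1 was called, falling from 107 ± 12.3 to 41.6 ± 1.86 CPM. Among 24 proteoglycan and hyaluronan genes, 4 were up-regulated and 5 down-regulated (1 to 4 in the leave-out fits, 4 without Empty A and fewer without each other library). CSPG4, the NG2 proteoglycan, rose from 12.7 ± 1.64 to 64.7 ± 5.06 CPM and SDC2, syndecan-2, rose from 4.03 ± 0.747 to 13.3 ± 1.52 CPM. GPC6, a glypican, rose from 14.4 ± 0.474 to 32.7 ± 1.90 CPM, and HAPLN1, a hyaluronan link protein, fell from 5.76 ± 1.87 to 1.76 ± 0.329 CPM. CD44, the hyaluronan receptor, had a log2FC of -0.58 and was not called.

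Matrix-degrading enzymes changed in both directions. Of 14 matrix metalloproteinases tested, 5 were up-regulated and 4 down-regulated, with a median of 0.63. The interstitial collagenase MMP1 had 167, 166 and 158 CPM in the Empty libraries and 74.8, 58.4 and 72.02 CPM in the NF-YAs libraries (log2FC -1.26, SE 0.108, adjusted p = 6.06e-06, edgeR). MMP13, another collagenase, fell from 95.3 ± 15.3 to 41.3 ± 7.39 CPM, and the stromelysin MMP10 fell from 6.93 ± 1.17 to 3.05 ± 0.312 CPM. These 3 genes stand in 1 cluster on chromosome 11, whose 100 neighbouring genes had a median of -0.03. MMP9, a gelatinase, had 0.755, 0.636 and 0.630 CPM in the Empty libraries and 4.90, 5.13 and 6.54 CPM in the NF-YAs libraries (log2FC 3.03, SE 0.238, adjusted p = 3.25e-06, edgeR), and MMP15, a membrane-bound member, rose from 1.87 ± 0.314 to 5.79 ± 0.521 CPM. MMP2, the other gelatinase, had 0 counts in the Empty libraries and 0.970, 1.14 and 1.06 CPM in the NF-YAs libraries, at least 8.74-fold higher. MMP7, matrilysin of the same chromosome 11 cluster, had 1.08, 0.498 and 1.24 CPM in the NF-YAs libraries and was at least 7.76-fold higher, so both reached only a low level. MMP14 had a log2FC of 0.83 and was not called.

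Of 19 TIMP inhibitors and ADAMTS proteases, 6 were up-regulated and 2 down-regulated, with a median of 0.34. ADAMTS1, a protease that cleaves versican, had 259, 292 and 319 CPM in the Empty libraries and 54.4, 53.05 and 52.5 CPM in the NF-YAs libraries (log2FC -2.44, SE 0.138, adjusted p = 4.21e-07, edgeR). ADAMTS9 was at or under 3 counts in the Empty libraries and at 6.19, 5.77 and 7.42 CPM in the NF-YAs libraries, at least 53.4-fold higher. ADAMTS3, a procollagen peptidase, rose from 4.89 ± 0.524 to 18.4 ± 2.79 CPM, ADAMTS10 rose from 0.274 ± 0.236 to 5.74 ± 0.401 CPM and ADAMTS7 rose from 5.03 ± 0.942 to 13.4 ± 0.235 CPM. TIMP1 (log2FC 0.02) and TIMP2 (log2FC 0.34) were not called. In the plasminogen activator and serpin group, 2 of 17 were up-regulated (1 without Empty B or NF-YAs C, 3 without Empty A) and 3 down-regulated. The serine protease TMPRSS2 fell from 14.4 ± 3.45 to 2.39 ± 0.444 CPM (log2FC -2.59, SE 0.210, adjusted p = 4.1e-06, edgeR). The serpins SERPINE2, an inhibitor of thrombin and urokinase, and SERPINB5, maspin, fell from 121 ± 18.8 to 46.5 ± 10.5 CPM and from 40.6 ± 1.97 to 15.8 ± 2.89 CPM. PLAT, tissue plasminogen activator, had a log2FC of -0.95 (adjusted p = 0.00169, edgeR) and was not called.

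Among 17 integrins 3 were up-regulated and 1 was down-regulated (2 without NF-YAs B), with a median of -0.18. ITGB3, the chain of the vitronectin receptor, had 3.06, 2.46 and 3.98 CPM in the Empty libraries and 67.4, 63.4 and 68.9 CPM in the NF-YAs libraries and lay in a stretch of chromosome 17 where 100 neighbouring genes had a median of 0.73 (log2FC of ITGB3 4.39). ITGA7, a laminin receptor chain, rose from 6.87 ± 0.471 to 25.01 ± 1.07 CPM, and ITGA2, a collagen receptor chain, fell from 259 ± 26.1 to 114 ± 11.7 CPM. ITGB1, the common partner of both, had 1254 CPM in Empty and 1762 CPM in NF-YAs MTSs (log2FC 0.49) and was not called. Adhesion molecules of the immunoglobulin family had 6 up- and 4 down-regulated genes of 25, with a median of -0.12. ICAM1, a leukocyte ligand induced in inflammation, had 9.31, 11.5 and 11.2 CPM in the Empty libraries and 93.2, 97.7 and 123 CPM in the NF-YAs libraries (log2FC 3.29, SE 0.193, adjusted p = 4.55e-07, edgeR). CNTN1, a contactin of neurons, had 2.14, 3.58 and 3.35 CPM in the Empty libraries and 30.6, 31.8 and 30.4 CPM in the NF-YAs libraries (log2FC 3.35, SE 0.187, adjusted p = 4.13e-07, edgeR). Both were low in Empty MTSs and about equally raised in the 3 NF-YAs libraries. MCAM, the melanoma cell adhesion molecule, rose from 3.66 ± 0.617 to 33.03 ± 4.15 CPM. CEACAM6 fell from 10.01 ± 4.17 to 0.785 ± 0.641 CPM, CADM2 fell from 26.5 ± 1.87 to 8.12 ± 0.629 CPM and BCAM, a laminin-binding protein, fell from 202 ± 31.97 to 80.8 ± 11.2 CPM. CADM1 and CADM2, related genes, thus went in opposite directions.

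The group of VEGF, PDGF and endothelial signalling genes had 9 up- and 3 down-regulated genes of 26, with a median of 0.45. Receptors for VEGF and PDGF were among the up-regulated genes. KDR, the main VEGF receptor of endothelium, had 28.2, 31.3 and 32.1 CPM in the Empty libraries and 242, 182 and 279 CPM in the NF-YAs libraries (log2FC 2.94, SE 0.257, adjusted p = 6.64e-06, edgeR). FLT1, the VEGF decoy receptor, had 4.32, 2.74 and 3.78 CPM in the Empty libraries and 53.5, 57.8 and 43.7 CPM in the NF-YAs libraries (log2FC 3.84, SE 0.493, adjusted p = 9.82e-05, edgeR). PDGFRA, a receptor of mesenchymal cells, had 3.52, 5.32 and 3.78 CPM in the Empty libraries and 67.3, 48.8 and 75.7 CPM in the NF-YAs libraries (log2FC 3.92, SE 0.234, adjusted p = 5.08e-07, edgeR). For these receptors, the lowest NF-YAs library was several-fold above the highest Empty library. ESM1, endocan, rose from 11.9 ± 0.638 to 125 ± 14.1 CPM. The ligand genes PDGFB and APLN fell from 43.01 ± 4.92 to 19.1 ± 3.57 CPM and from 73.02 ± 1.23 to 20.1 ± 1.14 CPM. PDGFRB (log2FC 0.45) and TIE1 (log2FC -0.01) were not called. The endothelial markers fixed for the label check, whose summed level was much the same in both lines, included 1 up-regulated (EGFL7, 0.977 CPM in Empty and 6.54 CPM in NF-YAs MTSs) and 1 down-regulated gene (PECAM1, 6.27 CPM in Empty and 1.88 CPM in NF-YAs MTSs).

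Guidance genes were among the larger groups with many DEGs. Of 36 ephrin, netrin and slit genes 12 were up-regulated and 5 down-regulated, with a median of 0.36. The receptor EPHA5 had 4.78, 4.77 and 4.72 CPM in the Empty libraries and 18.96, 23.2 and 24.5 CPM in the NF-YAs libraries (log2FC 2.22, SE 0.171, adjusted p = 2.82e-06, edgeR), and EPHA7 rose from 3.18 ± 0.929 to 9.91 ± 0.886 CPM. NEO1, the netrin receptor neogenin, rose from 2.59 ± 0.523 to 9.89 ± 1.304 CPM and the ligand EFNB3 rose from 6.25 ± 1.10 to 19.3 ± 1.10 CPM. Downward went SLIT2, a repulsive ligand, which had 232, 258 and 234 CPM in the Empty libraries and 107, 89.3 and 113 CPM in the NF-YAs libraries (log2FC -1.23, SE 0.114, adjusted p = 1.02e-05, edgeR), and EFNB1, which fell from 256 ± 18.2 to 119 ± 5.15 CPM. EFNA1 and EFNA3, neighbours on chromosome 1, had log2FC values of -1.15 and -1.12 in a neighbourhood with a median of -0.43, and lost the call when it was subtracted. EPHA2 (log2FC 0.20) and EPHB4 (log2FC 0.11) were not called. Of 29 semaphorins, plexins and neuropilins, 6 were up-regulated and 2 down-regulated (1 without Empty B or NF-YAs C, 3 without Empty A). SEMA6B rose from 6.08 ± 0.741 to 37.1 ± 2.68 CPM, SEMA4G rose from 5.91 ± 0.319 to 26.2 ± 1.92 CPM, the receptor PLXND1 rose from 7.73 ± 0.341 to 19.6 ± 1.04 CPM and the co-receptor NRP2 rose from 3.35 ± 0.593 to 14.4 ± 2.46 CPM. NRP1, the related co-receptor, had 1899 CPM in Empty and 1897 CPM in NF-YAs MTSs (log2FC 0.00). Clustered protocadherins, of which 33 were tested, had 3 up- and 2 down-regulated genes (0 to 1 down in the leave-out fits, whichever library was left out).

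Epithelial identity genes held the highest share of down-regulated genes, 8 of 16 (50%), with 2 up-regulated and a median of -1.02. Beside ELF3, the ETS factor EHF had 45.04, 56.8 and 48.2 CPM in the Empty libraries and 6.19, 3.73 and 7.46 CPM in the NF-YAs libraries (log2FC -3.11, SE 0.254, adjusted p = 4.43e-06, edgeR). CDH3, P-cadherin, had 55.8, 64.5 and 59.4 CPM in the Empty libraries and 6.52, 5.18 and 7.33 CPM in the NF-YAs libraries (log2FC -3.24, SE 0.163, adjusted p = 2.36e-07, edgeR). MAL2, which sorts proteins to the apical membrane, had 493, 450.4 and 477 CPM in the Empty libraries and 122, 78.4 and 105 CPM in the NF-YAs libraries (log2FC -2.22, SE 0.172, adjusted p = 2.95e-06, edgeR). For all 3 genes the highest NF-YAs library lay far under the lowest Empty library. CDH1, E-cadherin, was low in both lines, with 6.33, 6.12 and 7.28 CPM in the Empty libraries and 3.45, 1.94 and 2.49 CPM in the NF-YAs libraries, and lies on chromosome 16 in a neighbourhood with a median of -0.45. Its log2FC of -1.33 passed the test (adjusted p = 0.000931, edgeR) but not once the neighbourhood median was subtracted. CDH3 in the same neighbourhood kept its call. SPINT2, an epithelial protease inhibitor, had 213, 279 and 242 CPM in the Empty libraries and 125, 116 and 129.9 CPM in the NF-YAs libraries and a log2FC of -0.99, just inside the limit. KLF5 had a log2FC of -0.91 and was not called.

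The keratin group, which did not include KRT38, gave 3 called genes of 13, all down-regulated, with a median of -0.71. Besides KRT7, KRT86 fell from 11.2 ± 0.975 to 4.33 ± 0.962 CPM, but it is nearly identical to KRT81 (log2FC -0.98, not called), so that reads may be split between them. KRT19 and KRT18, simple keratins, had log2FC values of -0.79 and -0.49 (adjusted p = 8.56e-05 and 0.00255, edgeR) and did not reach the fold limit. Of 27 tight junction and desmosome genes, 4 were down-regulated (2 to 4, with 2 without Empty C or NF-YAs A) and 1 was up-regulated. The desmosomal cadherin DSC2 fell from 76.1 ± 5.14 to 24.4 ± 5.12 CPM and the plaque protein PPL, periplakin, fell from 96.1 ± 2.92 to 36.7 ± 6.31 CPM. CLDN11, a claudin, rose from 2.76 ± 0.552 to 17.1 ± 2.16 CPM.

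Of 13 genes for transcription factors and markers of epithelial-mesenchymal transition, 3 were up-regulated and 3 down-regulated, with a median of -0.16. The up-regulated genes of this group were all transcription factors, and SNAI1 was the only transcription factor among the down-regulated ones. SNAI2 and SNAI1, both repressors of E-cadherin, went opposite ways. SNAI2 (Slug) had 5.91, 6.16 and 5.12 CPM in the Empty libraries and 18.04, 23.1 and 19.5 CPM in the NF-YAs libraries (log2FC 1.82, SE 0.222, adjusted p = 6.96e-05, edgeR), whereas SNAI1 (Snail) had 4.49, 5.28 and 6.97 CPM in the Empty libraries and 1.51, 1.64 and 2.21 CPM in the NF-YAs libraries (log2FC -1.63, SE 0.239, adjusted p = 0.00025, edgeR). VIM, vimentin, and FN1 had log2FC values of 0.55 and -0.65, both under the fold limit. CDH11, a mesenchymal cadherin, had 719 CPM in Empty and 331 CPM in NF-YAs MTSs (log2FC -1.12) in a neighbourhood of chromosome 16 with a median of -0.51, and was not called with it subtracted. S100A4 had 25.3, 31.4 and 29.4 CPM in the Empty libraries and 7.16, 4.83 and 6.13 CPM in the NF-YAs libraries (log2FC -2.25, SE 0.171, adjusted p = 2.65e-06, edgeR). It belongs to the S100 cluster of chromosome 1, where the neighbourhood median was -0.40. Of 22 S100 proteins and annexins 6 were called, all down-regulated, with a median of -0.59. S100A6, calcyclin, had 1281, 1603 and 1519 CPM in the Empty libraries and 446, 451 and 463 CPM in the NF-YAs libraries (log2FC -1.69, SE 0.125, adjusted p = 2.2e-06, edgeR), and S100P, on another chromosome with a neighbourhood median of -0.02, fell from 11.8 ± 1.996 to 1.12 ± 0.469 CPM. ANXA2 and ANXA5 had log2FC values of -0.52 and 0.64 and were not called.

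In the prostate lineage group, 2 of 19 were up-regulated and 3 down-regulated, with a median of -0.28. TMPRSS2 fell, KLK2 and KLK3 did not pass the filter on low counts, and FOLH1 had 0.106 CPM in Empty and 0.740 CPM in NF-YAs MTSs and was not called (adjusted p = 0.0126, edgeR). GATA2, a zinc finger transcription factor, had 18.4, 26.98 and 19.9 CPM in the Empty libraries and 6.89, 3.18 and 7.83 CPM in the NF-YAs libraries (log2FC -1.86, SE 0.306, adjusted p = 0.000571, edgeR). FOXA1, a pioneer factor of prostate epithelium, had 86.6, 92.3 and 87.5 CPM in the Empty libraries and 47.2, 37.5 and 48.8 CPM in the NF-YAs libraries and a log2FC of -0.997, which did not pass the limit. HOXB13 had 489.9 CPM in Empty and 626 CPM in NF-YAs MTSs and was not called. Of 12 neuroendocrine genes, 3 were up-regulated and 1 down-regulated, with a median of 0.48. POU3F2 (BRN2), a neural transcription factor, had 1.76, 1.23 and 2.24 CPM in the Empty libraries and 15.8, 13.8 and 12.6 CPM in the NF-YAs libraries (log2FC 3.01, SE 0.336, adjusted p = 3.74e-05, edgeR). ENO2, neuron-specific enolase and also a glycolytic enzyme, fell from 304 ± 22.2 to 141 ± 3.09 CPM (log2FC -1.10, SE 0.0982, adjusted p = 7.62e-06, edgeR). REST, the repressor of neuronal genes, had 118 CPM in Empty and 134 CPM in NF-YAs MTSs and was not called.

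HOX genes gave 5 called members of 28, all up-regulated, with a median of 0.36, and the count was 2 to 4 in the leave-out fits, 4 without NF-YAs A and fewer without each other library. HOXB6 had 7.59, 8.11 and 8.30 CPM in the Empty libraries and 14.4, 19.8 and 19.95 CPM in the NF-YAs libraries, and its neighbourhood on chromosome 17 had a median of 0.60. With this median subtracted from its log2FC of 1.17, the call was lost. Among 17 stemness genes 2 were up-regulated and 2 down-regulated (each 1 to 2, up 1 without Empty A, Empty B or NF-YAs C, and down 1 without Empty C or NF-YAs B). LGR5, a receptor of stem cells in several epithelia, had 1.09, 0.596 and 0.590 CPM in the Empty libraries and 7.27, 6.52 and 6.36 CPM in the NF-YAs libraries (log2FC 3.14, SE 0.346, adjusted p = 3.28e-05, edgeR). ALDH3A1, an aldehyde dehydrogenase, had 26.9, 30.8 and 26.6 CPM in the Empty libraries and 4.42, 4.83 and 3.73 CPM in the NF-YAs libraries (log2FC -2.70, SE 0.201, adjusted p = 2.32e-06, edgeR). ALDH1A3 had 1240.4 CPM in Empty and 1144 CPM in NF-YAs MTSs and was not called.

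Signalling pathways had called ligands, receptors and inhibitors in both directions. Of 36 BMP and TGF-beta genes 6 were up-regulated and 3 down-regulated, with a median of 0.15. The ligand GDF15 had 258, 299 and 297 CPM in the Empty libraries and 44.4, 30.1 and 37.9 CPM in the NF-YAs libraries (log2FC -2.93, SE 0.194, adjusted p = 1.19e-06, edgeR), and FST, follistatin, an activin inhibitor, had 536, 548 and 527 CPM in the Empty libraries and 194, 179.5 and 213 CPM in the NF-YAs libraries (log2FC -1.46, SE 0.113, adjusted p = 2.98e-06, edgeR). Among the receptors TGFBR2 rose from 64.5 ± 1.89 to 144 ± 11.1 CPM and BMPR1B rose from 17.6 ± 0.544 to 39.8 ± 1.85 CPM, and the ligand BMP6 rose from 2.42 ± 0.564 to 9.80 ± 0.941 CPM. Of 34 Wnt ligands, Frizzled receptors and inhibitors, 5 were up-regulated and 2 down-regulated (1 without Empty C or NF-YAs A, 3 without Empty B). The ligand WNT7B fell from 53.7 ± 7.70 to 15.1 ± 0.894 CPM (log2FC -1.83, SE 0.146, adjusted p = 3.47e-06, edgeR) and WNT10B rose from 2.999 ± 0.164 to 7.74 ± 1.44 CPM. WNT3 rose from 1.76 ± 0.0988 to 7.07 ± 0.550 CPM in a neighbourhood with a median of 0.73. DKK1, an inhibitor, had 414 CPM in Empty and 456 CPM in NF-YAs MTSs and was not called. In the Notch group 2 of 22 were up- and 2 down-regulated. The up-regulated genes, LFNG and DTX1, stayed below a mean of 5 CPM in both lines. The ligand JAG2 fell from 9.97 ± 1.83 to 3.71 ± 0.620 CPM and NRARP, a Notch target and inhibitor, fell from 14.2 ± 2.28 to 4.01 ± 0.907 CPM, while NOTCH2 (log2FC 0.74) and JAG1 (0.31) were not called.

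Among 25 FGF ligands, receptors and Sprouty genes 1 was up-regulated (0 in each leave-out fit but that without NF-YAs A) and 3 were down-regulated. FGFBP1, a carrier that releases FGFs from the matrix, had 145, 169 and 179 CPM in the Empty libraries and 24.6, 16.02 and 20.2 CPM in the NF-YAs libraries (log2FC -3.02, SE 0.350, adjusted p = 4.79e-05, edgeR), and FGF1 fell from 42.6 ± 10.6 to 15.5 ± 2.22 CPM. Of 16 EGF receptor family members and ligands, 2 were up-regulated (1 without Empty B or NF-YAs A, 3 without Empty A) and 2 down-regulated (0 to 2, fewer without Empty B, Empty C, NF-YAs B or NF-YAs C). LRIG1, an inhibitor of EGFR, had 1.72, 0.954 and 1.77 CPM in the Empty libraries and 17.8, 14.03 and 21.4 CPM in the NF-YAs libraries (log2FC 3.58, SE 0.355, adjusted p = 1.6e-05, edgeR). EGFR (log2FC 0.31) and ERBB2 (log2FC -0.03) were not called. Of 21 AP-1 and immediate early genes 5 were down-regulated (2 to 5, fewer without Empty A, Empty C, NF-YAs B or NF-YAs C) and 1 was up-regulated (0 in each leave-out fit but that without NF-YAs B), with a median of -0.58. JUND fell from 60.9 ± 3.43 to 27.6 ± 0.929 CPM and KLF2 fell from 5.97 ± 1.53 to 2.18 ± 0.507 CPM (log2FC -1.44, SE 0.271, adjusted p = 0.00142, edgeR). FOSL1 (log2FC -0.40) and IER2 (0.01) were not called.

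Inflammatory and interferon genes went different ways. Of 23 chemokines and cytokines tested, 8 were up-regulated (5 to 7 in the leave-out fits, 5 without NF-YAs A) and 1 was down-regulated (2 without Empty B or NF-YAs A), with a median of 0.57. IL1B, an early inflammatory cytokine, had 17.6, 13.9 and 21.4 CPM in the Empty libraries and 102, 71.9 and 111 CPM in the NF-YAs libraries (log2FC 2.43, SE 0.201, adjusted p = 4.69e-06, edgeR). The neutrophil chemokine CXCL6 had 7.30, 6.32 and 6.14 CPM in the Empty libraries and 46.4, 32 and 38.4 CPM in the NF-YAs libraries (log2FC 2.56, SE 0.393, adjusted p = 0.00035, edgeR), and IL32 rose from 2.41 ± 0.312 to 9.88 ± 2.61 CPM. CXCL6 was raised in all 3 NF-YAs libraries. CCL2, a monocyte chemokine, fell from 6.53 ± 3.56 to 0.867 ± 0.379 CPM (log2FC -2.91, SE 0.517, adjusted p = 0.000973, edgeR). NFKBIA, a feedback target of NF-kappa B, had 135 CPM in Empty and 114 CPM in NF-YAs MTSs and was not called. Among 41 interferon-stimulated genes 4 were called, all down-regulated (2 to 5, with 2 without NF-YAs A), with a median of -0.56, and a further 12 were lower and 2 higher at adjusted p under 0.01 but within the fold limit. MX2, an antiviral GTPase, had 41.7, 45.6 and 54.7 CPM in the Empty libraries and 7.22, 20.8 and 13.7 CPM in the NF-YAs libraries (log2FC -1.76, SE 0.268, adjusted p = 0.000332, edgeR). OAS1, an RNA-sensing synthetase, had 126, 153 and 182 CPM in the Empty libraries and 36.1, 63.5 and 57.97 CPM in the NF-YAs libraries (log2FC -1.55, SE 0.198, adjusted p = 9.66e-05, edgeR). OAS3 had a log2FC of -0.64 and stayed within the fold limit. In the MHC class I group 0 of 15 were called by edgeR and 0 by DESeq2, with 4 higher and 6 lower at an unadjusted p under 0.05. B2M, the common light chain, had 446, 484 and 427 CPM in the Empty libraries and 800.3, 801 and 994 CPM in the NF-YAs libraries (log2FC 0.94, adjusted p = 0.000143, edgeR).

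Calls among metabolic genes were downward. Of 32 glycolysis and hypoxia genes tested, 7 were called, all down-regulated, a further 8 were lower within the fold limit, and the median was -0.53. NDRG1, a hypoxia-responsive gene, had 989, 1147 and 1286 CPM in the Empty libraries and 331, 323 and 313 CPM in the NF-YAs libraries (log2FC -1.82, SE 0.124, adjusted p = 1.45e-06, edgeR). The glucose transporter SLC2A1 had 268, 318 and 306 CPM in the Empty libraries and 102, 101 and 100.1 CPM in the NF-YAs libraries (log2FC -1.56, SE 0.112, adjusted p = 1.82e-06, edgeR). ANGPTL4, a secreted inhibitor of lipoprotein lipase, had 139.7, 199 and 140.3 CPM in the Empty libraries and 32.9, 34.04 and 22.5 CPM in the NF-YAs libraries (log2FC -2.42, SE 0.188, adjusted p = 2.98e-06, edgeR). The 3 genes were lower in every NF-YAs library than in any Empty library. ADM, adrenomedullin, fell from 65.8 ± 10.4 to 19.6 ± 2.48 CPM. The enzymes GAPDH and PKM had log2FC values of -0.40 and -0.18 and were not called. The summed level of the group was 21997 CPM in Empty and 15979 CPM in NF-YAs MTSs. Nuclear-encoded respiratory chain genes had 0 of 38 called by edgeR and 0 by DESeq2, with a median of -0.03 and with 7 higher and 7 lower at an unadjusted p under 0.05.

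Called lipid synthesis genes were down-regulated too. Of 24 genes of cholesterol synthesis and uptake, 3 were called, all down-regulated, a further 7 were lower within the fold limit, and the median was -0.58. MSMO1, a sterol demethylase, had 78.1, 63.4 and 70.9 CPM in the Empty libraries and 32.6, 22.5 and 22.9 CPM in the NF-YAs libraries (log2FC -1.45, SE 0.254, adjusted p = 0.000895, edgeR). MVD and NSDHL, with log2FC values of -1.08 and -1.07, stood in neighbourhoods with medians of -0.32 and -0.74 and lost the call when these were subtracted, and NSDHL also without NF-YAs B. Of 12 fatty acid synthesis genes 2 were down-regulated. SCD, the stearoyl-CoA desaturase, had 998, 1142 and 1109 CPM in the Empty libraries and 414, 358 and 334 CPM in the NF-YAs libraries (log2FC -1.56, SE 0.135, adjusted p = 6.53e-06, edgeR). INSIG2, a retention factor of the sterol sensor, fell from 44.6 ± 1.29 to 19.5 ± 2.99 CPM. FASN had 519 CPM in Empty and 576 CPM in NF-YAs MTSs and was not called.

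Of 25 genes of endoplasmic reticulum stress and folding 3 were called, all down-regulated, and the median was -0.05, with 4 more higher and 4 more lower within the fold limit. HERPUD1, a degradation factor, had 120.2, 148 and 164 CPM in the Empty libraries and 56.6, 54.99 and 61.7 CPM in the NF-YAs libraries, and its log2FC of -1.32 was no longer past the limit after subtracting a neighbourhood median of -0.53. The chaperone HSP90B1 had 783, 859.9 and 871 CPM in the Empty libraries and 1283, 1265 and 1236 CPM in the NF-YAs libraries (log2FC 0.59, adjusted p = 0.000432, edgeR), within the fold limit. CALR had 926 CPM in Empty and 937 CPM in NF-YAs MTSs and was not called. In serine and one-carbon metabolism 1 of 16 was called. CTH, which makes cysteine from cystathionine, had 11.4, 12.6 and 16.6 CPM in the Empty libraries and 4.20, 2.89 and 3.92 CPM in the NF-YAs libraries (log2FC -1.88, SE 0.204, adjusted p = 2.92e-05, edgeR). Among 24 NRF2 and metallothionein genes 2 were down-regulated (1 to 2, with 1 without Empty B, Empty C, NF-YAs A or NF-YAs B), and TXNRD1 had 1251 CPM in Empty and 1105 CPM in NF-YAs MTSs and was not called.

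Few genes of proliferation were called. CCAAT stood in 85% of 20 matched promoters of G2/M and mitotic genes and in 76.92% of 13 of histone genes. The share was 52.17% of 23 for DNA replication and S phase genes and 40% of 5 for CDK inhibitors and D-type cyclins, beside 37.14% over all. Of 30 G2/M and mitotic genes 0 passed edgeR's test in either direction, also without the fold limit, and 0 were called by DESeq2. At an unadjusted p under 0.05 there were 9 higher and 0 lower in edgeR, and 24 of 30 had a log2FC above 0, with a median of 0.20. MKI67, the proliferation marker Ki-67, had 310.2, 291 and 260.1 CPM in the Empty libraries and 401, 410.0 and 396 CPM in the NF-YAs libraries (log2FC 0.49, adjusted p = 0.0359, edgeR). CENPF had 215, 199 and 185 CPM in the Empty libraries and 312, 279 and 266 CPM in the NF-YAs libraries (log2FC 0.52, adjusted p = 0.0368, edgeR). The NF-YAs libraries lay above the Empty libraries in both genes, by less than the limit. Of 34 DNA replication and S phase genes 1 was up-regulated, with a median of 0.20. That gene was MCM10, which had 8.99 CPM in Empty and 20.1 CPM in NF-YAs MTSs (log2FC 1.16) in a neighbourhood with a median of 0.43 and lost the call when this was subtracted. RRM2 (log2FC 0.28) and MCM4 (log2FC 0.22) were not called. Of 12 CDK inhibitors and D-type cyclins 1 was down-regulated, CDKN1C (log2FC -1.03), which was not called without Empty C, NF-YAs A or NF-YAs B, so that the count was 0 to 1, nor with the neighbourhood median subtracted, and CCND1 and CDK4 were not called. Of 16 histone genes 0 were called by edgeR and 0 by DESeq2, with 1 higher and 1 lower at an unadjusted p under 0.05. Splicing regulators (1 of 37 up-regulated) and cytosolic ribosomal protein genes (1 of 40 down-regulated) had few calls as well. The ribosomal exception, RPL10, had 886, 1157 and 1153 CPM in the Empty libraries and 448, 458 and 477 CPM in the NF-YAs libraries (log2FC -1.21) in a part of chromosome X with a neighbourhood median of -0.76, and was not called with it subtracted. The median of the ribosomal protein genes was -0.28. In the BCL2 family 2 of 16 were up-regulated, among them the survival gene BCL2A1, which rose from 5.65 ± 0.520 to 15.5 ± 3.21 CPM (log2FC 1.45, SE 0.169, adjusted p = 4.79e-05, edgeR). The other was HRK, which promotes cell death and stayed below a mean of 5 CPM in both lines.

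A set of genes was measured by RT-qPCR in the study, in xenograft tumors of these cells. Whether they were picked with the present libraries in view is not given in the sources used here, so their changes are not taken as independent evidence. The group of 13 tested genes also holds the reference genes ACTB, RPL21 and RPS20. By the present test 8 of the 13 were up-regulated (CNTN1, SNAI2, MMP2, MMP7, COL1A1, COL21A1, COL4A1 and COL4A2). CDH1 and SPON1 were down-regulated (2, and 1 to 2 in the leave-out fits), so only the reference genes were not called. SPON1, spondin-1, had 5.66, 4.41 and 5.31 CPM in the Empty libraries and 1.83, 1.69 and 3.64 CPM in the NF-YAs libraries (log2FC -1.09, SE 0.270, adjusted p = 0.00767, edgeR) and kept the call in only 1 of the 6 leave-out fits, that without NF-YAs C. The reference genes ACTB, RPL21 and RPS20 had log2FC values of 0.28, -0.36 and -0.24 and were not called. In the study RPL21 was the reference for cell lines, and ACTB and RPS20 were those for the tumors.

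By the change of mean TPM, which weighs level as well as fold, other genes led. FTH1, the ferritin heavy chain that stores iron, had 2288, 2076 and 2226 CPM in the Empty libraries and 1076, 912 and 1035 CPM in the NF-YAs libraries (log2FC -1.12, SE 0.113, adjusted p = 1.71e-05, edgeR). TERC, the RNA component of telomerase, had 155, 174 and 163 CPM in the Empty libraries and 76.8, 68.7 and 85.2 CPM in the NF-YAs libraries (log2FC -1.09, SE 0.142, adjusted p = 0.000108, edgeR). TCN1, a vitamin B12 carrier, had 7.63, 10.3 and 6.26 CPM in the Empty libraries and 172, 159 and 172 CPM in the NF-YAs libraries (log2FC 4.37, SE 0.297, adjusted p = 1.45e-06, edgeR). MSMP, a small secreted protein, rose from 2248 ± 338 to 5435 ± 472 CPM, and the transporter SLC35F2 rose from 271 ± 17.5 to 574 ± 12.4 CPM. Downward, SLC5A3, an inositol transporter, fell from 3071 ± 112 to 603 ± 208 CPM and MRPS6, a mitochondrial ribosomal protein, fell from 382 ± 47.4 to 87.8 ± 16.8 CPM. Both genes start at the same promoter on chromosome 21 and overlap, so their reads cannot be told apart with certainty.

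Changes were then placed along the chromosomes, since some gene families above lay in neighbourhoods that were shifted as a whole. For each of 16328 genes placed on GRCh37 the median log2FC of the 100 neighbouring genes was taken. It passed 0.3 in size for 2221 genes (13.6%), which included 186 up-regulated and 144 down-regulated genes. The stretches formed by such genes were chosen by these values, so what follows describes them without a test. On chromosome X, 88 genes between 78200829 and 108787927 had a median log2FC of 0.70, with 26 called, all up-regulated. A later stretch of X, from 123093083 to 154948759, held 133 genes with a median of -0.74, of which 26 were down-regulated and 8 up-regulated. Further runs were 165 genes at the end of chromosome 12 (112464493 to 133791418, median 0.59), 241 genes of chromosome 17 (41924516 to 65029514, median 0.55), 64 genes at the start of chromosome 10 (176028 to 15130775, median 0.58), 305 genes of chromosome 16 (31714489 to 90244752, median -0.44), 189 genes of chromosome 18 (158383 to 57364894, median -0.44), 224 genes of chromosome 1 (150573327 to 165880855, median -0.40) and 120 genes of chromosome 21 (10906317 to 43816200, median -0.42). Chromosome 7 held 93 genes (192969 to 16685442, median 0.38) and 107 genes (23338358 to 43966010, median 0.41), and chromosome 14 held 76 genes (75469624 to 93306292, median 0.39). The other runs held 26 to 69 genes.

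The shift of each of these stretches was seen in every library of the line. Relative to the mean of the Empty libraries, the NF-YAs libraries A, B and C had medians of -0.77, -0.78 and -0.73 in the lower stretch of X, of 0.55, 0.68 and 0.63 in its higher stretch and of 0.54, 0.55 and 0.55 on chromosome 17. On chromosome 16 the medians were -0.45, -0.37 and -0.44. There the Empty libraries, each set against the mean of the other Empty libraries, stood between -0.04 and 0.04. The NF-YAl libraries, which are other stable cells, had medians of -0.65, -0.81 and -0.79 in the lower stretch of X and of -0.03, -0.07 and -0.15 on chromosome 1, where NF-YAs had -0.36, -0.41 and -0.35. Both overexpressing lines were compared with the same Empty libraries. The cause of these shifts was not tested. With the neighbourhood median subtracted from each gene, 830 genes were up-regulated and 543 down-regulated.

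**Figure D4:**
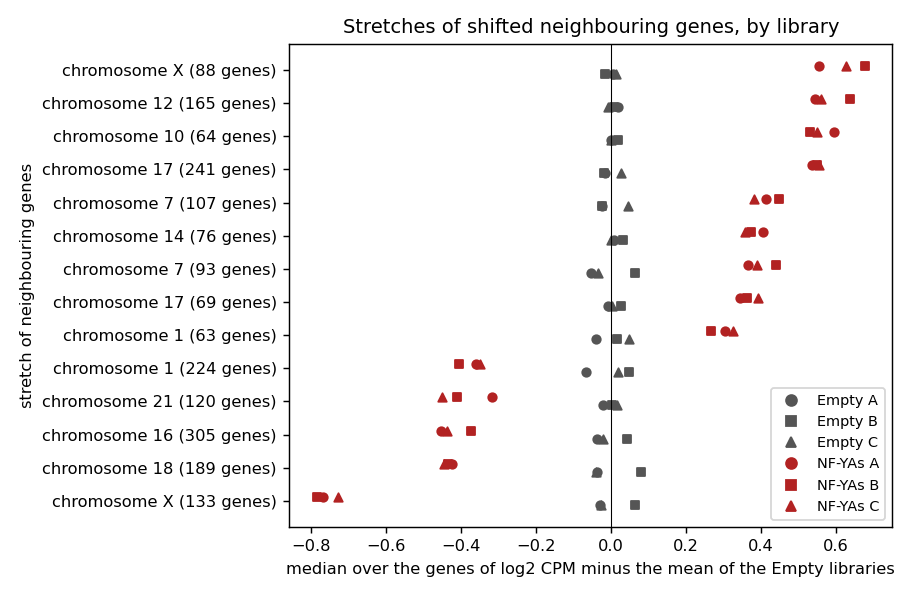
Median over the genes of a stretch of log2 CPM minus the mean of the Empty libraries (horizontal axis), one row for each of the longer stretches of shifted neighbouring genes, with grey points for Empty and red points for NF-YAs libraries (circle A, square B, triangle C). For an Empty library, the mean subtracted is that of the other Empty libraries. Empty libraries sit within 0.09 of 0 in these rows. The 3 NF-YAs libraries of a row sit close together, from about -0.8 on chromosome X to about 0.7 on another part of it.

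Of 34671 transcripts tested, 392 (1.13%) were up-regulated and 329 (0.949%) down-regulated by the same limits. Of the up-regulated transcripts, 340 belonged to genes called up and 52 to genes not called, and of the down-regulated 268 belonged to genes called down and 61 to genes not called. None belonged to a gene called in the opposite direction. These counts fell to 101 to 175 up and 89 to 183 down when 1 of the 6 libraries was left out, most of all without Empty C (101 up and 89 down). The share of a transcript in its gene (IsoPct, in percent) was then compared for 7966 genes with at least 2 tested transcripts. A shift of 20 points or more at an adjusted p under 0.01, with no overlap between the lines, was found in 5 genes (0.0628%), none of them a DEG.

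In SEC14L4, a lipid-transfer protein gene, transcript NM_001161368.1 took 32.2%, 26.7% and 25.9% of the gene in the Empty libraries and was listed at 0 in all 3 NF-YAs libraries (usage adjusted p = 0.000214, edgeR), and the shift held in all 6 leave-out fits. In MLPH, melanophilin, NM_024101.6 took 6.04%, 11.9% and 3.10% in the Empty and 26.2%, 28.1% and 27.7% in the NF-YAs libraries (usage adjusted p = 0.00026, edgeR), a shift that held in 3 of the 6 leave-out fits. In CNOT2, a subunit of the CCR4-NOT deadenylase complex, NM_001199302.1 was listed at 0 in the Empty libraries and at 15.3%, 35.4% and 15.4% in the NF-YAs libraries, but not called without NF-YAs B. The last 2 genes, ISYNA1 and HCFC1R1, likewise rested on a transcript listed at 0 in 1 line. ISYNA1 kept its call in 2 of the 6 leave-out fits, those without NF-YAs A and without NF-YAs B, and HCFC1R1 in 0 of the 6. An estimate of 0 for 1 of several overlapping transcripts can be a failed estimate rather than absence.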

How the data were processed

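RNA-seq of 9 libraries of PC-3 MTSs (3 Empty, 3 NF-YAs, 3 NF-YAl) was used, and the comparison covered 6 of them. Per the labels and the study's methods, stranded total RNA libraries were aligned to hg19 (GRCh37) with Bowtie2 within RSEM, and the authors deposited, per gene and per transcript, expected counts, TPM, FPKM and, per transcript, IsoPct in percent. FPKM values of the deposited files were not used. The strand setting of the counting and the annotation release are not given in the sources used here. Groups came from the sample labels. Expected counts were rounded to whole numbers, genes with low counts were removed (filterByExpr), library sizes were scaled (TMM), and all 9 libraries were fitted in 1 edgeR quasi-likelihood model (edgeR 4.0.16, R 4.3.3), which left 17108 genes. Transcripts were fitted in the same way and transcript usage with edgeR's diffSpliceDGE. A call needed an adjusted p below 0.01 with a log2FC outside -1 to 1, and SE was the log2FC divided by the root of F. Single-gene comparisons of 3 against 3 by permutation could not go below p = 0.1 and were not run. Genes named in the text were NFYA, NFYB, NFYC and the RT-qPCR genes, for each group up to 4 called genes in each direction and 2 uncalled members of highest level, the 10 genes with the largest log2FC and the 10 with the largest TPM change in each direction (called genes with a mean of at least 5 CPM and no overlap), and the genes of shifted usage. A few called group members below 5 CPM are named without values. The members and the gene groups were chosen with earlier results of these data known. Counts were also simulated for 16524 genes of this comparison. Of 100 genes changed by a log2FC of 1.5, 93 were recovered, and of 100 changed by 3, 100 were, with 3 unchanged genes called. The simulated NF-YAl libraries did not differ from Empty, few genes were changed, and none of these had almost no counts in Empty. The recovery therefore does not carry over to genes near 0 counts or to data with many changes. Alternatives were DESeq2 1.42.0, other scaling, filters, thresholds and samples, a replicate block, left-out libraries and subtraction of the neighbourhood median. Libraries of a line are separate experiments on 1 line of stable cells, so p-values measure the spread between those experiments. Expected counts above carry counting error and RSEM's own uncertainty, and lower bounds of folds cover counting error only. Some members of the gene groups and 1 list of markers are not reported here, although the counts of the groups include them.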

Additional observations from a re-analysis of the deposited data

Results flagged for a closer look

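The 20 genes with the largest changes against Empty were also compared directly between NF-YAs and NF-YAl MTSs, with edgeR's quasi-likelihood test over all 17108 genes, of which 11% passed an adjusted p under 0.01. The 20 genes were chosen for large changes in the same NF-YAs libraries, so the share of them that passed cannot be weighed against the 11%. All libraries of an isoform came from the same stable cells, so differences are between lines. Each of the following 16 genes differed between the lines in that test, and values are log2 differences of NF-YAs minus NF-YAl.

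Higher with NF-YAs than with NF-YAl were PIWIL1 (10.50, a fitted value that depends on the prior count), CADM1 (6.16), SPATA31C2 (5.06), LRRC15 (4.12), ADAM33 (4.06), TIMP3 (3.55), SYN3 (3.34), DCHS2 (2.59), PDZRN3 (1.499) and GPR85 (1.48). PIWIL1 had 0 counts in every NF-YAl library, so that it was at least 59.5-fold higher with NF-YAs, and CADM1 was at least 57.5-fold and TIMP3 at least 9.38-fold higher. TIMP3 and SYN3, which overlap, were lower in both overexpressing lines than in Empty, and NF-YAl had the lower level of the 2. LRRC15 had 0.690, 1.92 and 1.07 CPM in the NF-YAl libraries against 12.6, 28.4 and 24.4 CPM in the NF-YAs libraries.

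Lower with NF-YAs than with NF-YAl were KRT7 (-4.61), TFF2 (-3.49), GJA5 (-3.33), ELF3 (-2.47), C1orf116 (-2.47) and KRT38 (-1.78). KRT7 had 29.8, 33.5 and 53.4 CPM in the NF-YAl libraries, against 26.5, 22.9 and 19.7 CPM in the Empty and 2.05, 0.896 and 1.84 CPM in the NF-YAs libraries. ELF3 had 8.33, 6.75 and 15.4 CPM in the NF-YAl libraries, between the other lines. For PTGFRN (adjusted p = 0.0131, edgeR), RUNX3 (0.522), ZBTB7C (0.692) and LINC01133 (0.459) the difference between these lines did not pass the threshold. Why these genes differ was not tested.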

How the results depend on the processing

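The numbers of up- and down-regulated genes stayed within 1.5 times of 931 and 667 in each alternative, at 630 to 1093 up and 504 to 841 down. Of the up-regulated genes 671 (72.1%), and of the down-regulated genes 422 (63.3%), were called in all 6 fits that left out 1 library. The log2FC of NFYA was 1.49 to 1.54. Of 186 called genes eligible to be named, 139 passed in every setting that gave a value. None of these 186 called genes changed sign in any of these settings, and signs of genes not called were not compared. The NFYA transcript with exon 3, which was not called, had a log2FC of 0.07 in all and of -0.20 to 0.39 with 1 library left out.

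Without a fold limit, the 3865 genes became 6036 with only the 6 libraries in the fit and 6065 at an adjusted p under 0.05, and 2358 to 2892 with 1 library left out (2358 without Empty C, 2533 without NF-YAs B, 2467 without NF-YAs C). The cause of the rise with 6 libraries was not tested. Of the 20 largest changes, 16 differed between NF-YAs and NF-YAl, but 6 with at least 10 counts in all 6 libraries, a filter that removes most of them before the test, and 14 to 16 with 1 library left out. Transcript calls moved more. At an adjusted p under 0.05 they were 797 up and 669 down, and with 1 library left out 101 to 175 up and 89 to 183 down. Genes with shifted usage, 5 in all, were 3 with at least 10 counts, 18 with the 6 libraries, 11 at an adjusted p under 0.05 and 2 to 7 with 1 library left out (3 without Empty A, 2 without Empty C, 3 without NF-YAs C).

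The libraries of both lines carry the letters A, B and C. Deviations from the line means correlated between libraries of the same letter at r = 0.077 (A), -0.013 (B) and 0.098 (C) across genes. These values lay under the limit of 0.1 set for pairing, C only just, so the letters were taken as names and not as pairs. NF-YAs A and NF-YAs C correlated best with the Empty library of their own letter, whereas NF-YAs B correlated best with Empty A (r = 0.038). With the letter as a replicate block in a fit of 6 libraries, 1005 genes were up- and 772 down-regulated, 6273 genes passed without a fold limit and 1 gene had shifted usage. The block called 0 up- and 0 down-regulated transcripts by edgeR, with 7997 of 32242 at an unadjusted p under 0.05 and a lowest adjusted p of 0.0252, at 2 residual degrees of freedom. DESeq2 was not run on transcripts.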

Other observations

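GNAS, an imprinted gene that codes for a G protein subunit and, from another promoter, for the neuroendocrine secretory protein NESP55, was picked after its values were seen, and its NESP55 transcript is 1 of the 392 up-regulated transcripts above. Its NESP55 transcript (NM_016592.3) had 8.38, 8.45 and 8.16 CPM in the Empty libraries and 49.8, 59.6 and 54.8 CPM in the NF-YAs libraries. It took 0.65%, 0.55% and 0.57% of GNAS abundance in the Empty and 3.33%, 3.70% and 3.51% in the NF-YAs libraries. The change of the transcript was called (log2FC 2.72, SE 0.132, adjusted p = 0.000357, edgeR), also with any 1 of the 6 libraries left out, and its share stayed too small for the limit of 20 points on usage. In the NF-YAl libraries it had 35.1, 43.4 and 32.4 CPM.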
